A study of Homo sapiens with 18 samples.

Results

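The immediate-early and early response genes examined here, in lymphoma cells recovered from CART19-treated mice, were EGR1, EGR2, EGR3, NR4A1, DUSP1, DUSP2, IER2, IER3, ZFP36 and KLF6. They were chosen by name, all 10 were found among the 58735 genes of the deposited count table, and all 10 were among the 20301 genes with enough counts to test. Immediate-early genes are transcribed within minutes of a stimulus, without new protein synthesis, when kinases such as ERK, p38 and RSK act on factors that already sit at their promoters, among them serum response factor with its ETS-family partners and CREB. Their RNAs are short-lived, so the level follows recent signalling. In B cells they respond to the antigen receptor, CD40 and cytokines, and in any tissue they are also induced by cutting, enzymes and warming while cells are brought into suspension.

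OCI-Ly18, a human line from a diffuse large B-cell lymphoma, carried green fluorescent protein and was grown under the skin of NSG mice, which lack T, B and NK cells of their own. The tazemetostat group (3 mice, M_767, M_768 and M_774) received the EZH2 inhibitor tazemetostat at 150 mg/kg daily by gavage for 14 days, starting 3 days after implantation, and then CART19 cells, T cells engineered with a chimeric antigen receptor. The vehicle group (3 mice, M_766, M_769 and M_770) received vehicle over the same 14 days and then the same CART19 cells. Fluorescent tumour cells were sorted from the dissociated tumours 11 days after the infusion, so both groups had met CART19 cells and both had been dissociated and sorted. Tumours of mice infused with UTD cells, which the labels also name, were not analysed here, and the labels do not say if dosing went on once CART19 cells were given. All tumours came from 1 cell line. Each mouse has 3 libraries, A, B and C, whose relation is not stated in the labels. They were summed, since the mouse received the treatment, and whether mice shared a litter or a day is not given.

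Libraries held 16124494 to 26336269 counts in the tazemetostat group and 17676638 to 24935347 in the vehicle group (9 each). Library M_768_C, in the tazemetostat group, stood apart, with chi-square values per degree of freedom of 67.3 and 49.4 against its sister libraries where the other pairs within a mouse had 2.02 to 4.81. EZH2 RNA, which the drug does not delete, was at 208 ± 8.40 CPM (the usual counts per library size, after TMM scaling) in tazemetostat mice and 207 ± 9.02 CPM in vehicle mice (SD, n = 3 each). The B-cell label held, with CD79A, a subunit of the B-cell receptor, at 298 ± 21.2 CPM in tazemetostat mice and 281 ± 21.3 CPM in vehicle mice (SD, n = 3 each). Of 17 T-cell markers 10 had too few counts to test. CD3D and CD3G had 0 counts in both groups, which allows up to 0.0154 CPM in the tazemetostat group and 0.0167 CPM in the vehicle group (3 counts over the group, counting error only).

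Promoter sequences are shown for DUSP1 and ZFP36, which did not overlap between the groups, and for EGR1 and EGR2, whose promoters hold the serum response factor motif. Each is the 250 bases before the transcription start, 5′ to 3′ on the strand of the gene, from RefSeq on GRCh38.p14. Capitals mark 3 motifs on either strand: the CArG box bound by serum response factor, TGACG (or CGTCA), which is the core of a CREB site, and the TATA motif TATAAA.
EGR1: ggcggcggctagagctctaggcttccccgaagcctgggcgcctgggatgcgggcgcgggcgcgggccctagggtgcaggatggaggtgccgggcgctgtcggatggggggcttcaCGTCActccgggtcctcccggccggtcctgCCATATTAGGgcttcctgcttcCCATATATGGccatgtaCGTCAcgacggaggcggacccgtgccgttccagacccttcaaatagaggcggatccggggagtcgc
EGR2: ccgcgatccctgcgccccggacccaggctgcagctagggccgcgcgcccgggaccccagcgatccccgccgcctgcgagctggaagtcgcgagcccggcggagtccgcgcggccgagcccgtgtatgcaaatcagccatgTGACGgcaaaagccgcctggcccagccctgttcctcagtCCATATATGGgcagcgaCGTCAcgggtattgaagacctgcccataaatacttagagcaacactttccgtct
DUSP1: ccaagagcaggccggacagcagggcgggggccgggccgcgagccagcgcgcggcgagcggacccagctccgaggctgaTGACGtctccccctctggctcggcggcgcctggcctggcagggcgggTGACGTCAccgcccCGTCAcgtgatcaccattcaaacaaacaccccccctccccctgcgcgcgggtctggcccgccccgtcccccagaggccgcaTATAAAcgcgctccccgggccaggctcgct
ZFP36: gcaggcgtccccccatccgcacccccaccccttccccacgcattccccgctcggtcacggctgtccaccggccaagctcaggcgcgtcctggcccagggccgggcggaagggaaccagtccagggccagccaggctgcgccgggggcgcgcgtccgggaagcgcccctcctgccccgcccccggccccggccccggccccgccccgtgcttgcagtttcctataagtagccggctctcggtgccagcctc
The windows lie at chr5:138465229-138465478 (plus strand, EGR1), chr10:62816367-62816616 (minus strand, EGR2), chr5:172771196-172771445 (minus strand, DUSP1) and chr19:39406597-39406846 (plus strand, ZFP36). The EGR1 window held 2 CArG boxes and the EGR2 window 1. That EGR2 window is 1 of 3 in the table and was picked for the motif, which the other 2 do not hold. The DUSP1 window held no CArG box but 1 full CREB site, TGACGTCA, which contains TGACG on both strands, beside 2 further TGACG matches and a TATAAA. The ZFP36 window held none of the 3.

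The table matched 8 members with 11 promoter windows of 300 bases, of which 250 lie before the start and 50 after it; IER3 had no entry and the EGR3 sequence was not used here. A CArG box was present in 2 of the 11 windows, those of EGR1 and 1 of EGR2, against 1.29% of 35116 windows in the whole RefSeq table. TGACGTCA was found in 1 of the 11 windows, that of DUSP1, against 1.85% of all windows. TGACG, which that site contains on both strands, was found in 4 of the 11 windows, of EGR1, EGR2, DUSP1 and IER2, against 24.6% of all windows. GCGNGGGCG, the motif that EGR proteins themselves bind, was found in 4 of the 11 windows, of EGR1, EGR2 (another window than the printed one), DUSP2 and KLF6, against 9.43% of all windows. The AP-1 motif TGANTCA was found in 0 of the 11 windows, against 7.71%. TATAAA was found in 1 of the 11 windows, that of DUSP1, against 11.5% of all windows. A match describes letters in a window and does not show a bound site.

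Levels between genes were compared as CPM per kilobase, using the gene lengths deposited by the authors. In tazemetostat mice DUSP1 stood first at 47.6 ± 5.99 CPM per kilobase, followed by KLF6 at 21.7 ± 4.56 and ZFP36 at 19.5 ± 1.18 (SD, n = 3). DUSP2 came next at 10 ± 1.34 CPM per kilobase, then IER3 at 5.79 ± 1.66, NR4A1 at 5.14 ± 0.54, IER2 at 2.6 ± 0.241 and EGR1 at 2.29 ± 1.11. EGR2 was at 0.212 ± 0.0976 and EGR3 at 0.0585 ± 0.0134 CPM per kilobase, the 2 scarcest of the 10. In this order KLF6 and ZFP36, IER3 and NR4A1, and IER2 and EGR1 are neighbours that differed by less than the larger SD of the pair. In vehicle mice DUSP1 was at 24.5 ± 8.22 CPM per kilobase and KLF6 at 16.6 ± 7.02, which overlap within their SD. IER3 stood below NR4A1 in vehicle mice, at 2.67 ± 0.676 CPM per kilobase, against 4.95 ± 0.126 for NR4A1, and within the spread of IER2 at 2.95 ± 0.514 (SD, n = 3).

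The comparison of tazemetostat with vehicle asked how prior EZH2 inhibition altered these genes in lymphoma cells that then met CART19 cells. None of the 10 genes passed an adjusted p of 0.05 in edgeR's quasi-likelihood test over all genes, where 7 of 20301 genes did (0.0345%, and 0.0197% in the higher direction). Of the 10, 3 (DUSP1, IER3 and ZFP36) were higher in every tazemetostat mouse than in any vehicle mouse, against 6.58% of all tested genes in that direction, and none was lower in every tazemetostat mouse, against 6% of all tested genes. At an unadjusted p under 0.05, EGR1, DUSP1, IER3 and ZFP36 were higher, 4 of 10 genes against 3.34% of all tested genes. The log2 fold change was above 0 for 9 of the 10 genes, against 48.1% of all tested genes. Its median was 0.60 over the 10 genes and -0.0091 over all genes, and 0.38 over the 10 genes without vehicle mouse M_766. Other tools gave other calls: DESeq2 on the same mouse sums called 3 of the 10, DUSP1, IER3 and ZFP36, where it called 0.676% of all genes, and limma-voom on all 18 libraries, with mice as random effects, called 4, those 3 and EGR1, where it called 1.38%. A block for the library letter in that model left 2, DUSP1 and ZFP36 (1.16% of all genes). Without a low-count filter edgeR called 5, the 4 and KLF6 (0.685% of all genes). There the edgeR adjusted p of DUSP1 fell from 0.303 to 2.93e-14, while its log2 fold change hardly moved, from 0.96 to 0.97. For EGR1, whose groups overlapped, the edgeR adjusted p fell from 0.472 to 1.19e-10. The mice were the same 6, and the cause of these lower p-values was not tested. The 18-library fits used 1 correlation among libraries of a mouse for all genes (0.423 without the letter). For DUSP1 and EGR1, mice of a group differed far more than libraries of a mouse (SD ratios 4.99 and 3.41). For such genes these fits partly count libraries as replicates. In bulk RNA, fewer cells expressing a gene and less RNA per cell cannot be told apart.

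**Figure D1:**
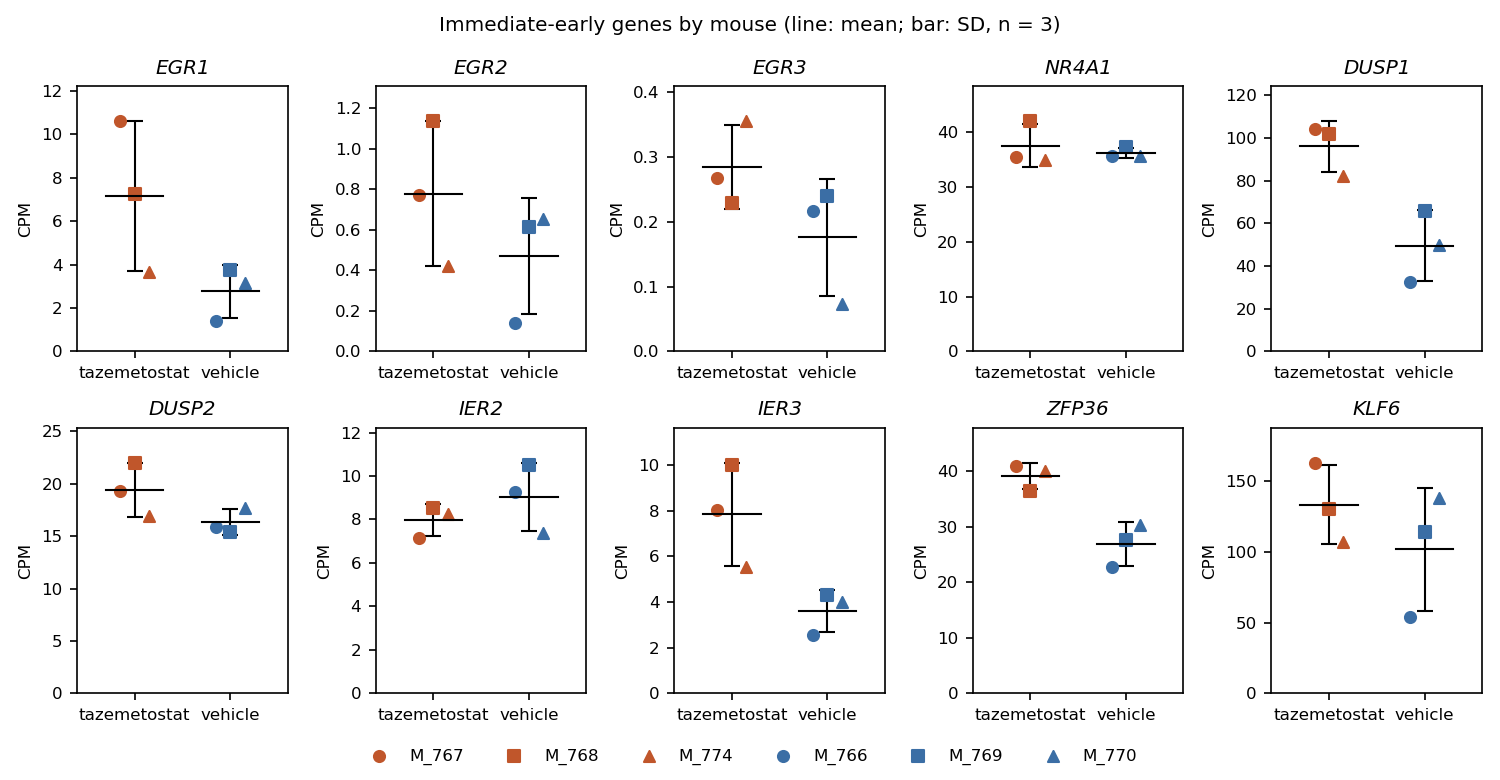
CPM of each of the 10 genes in the 3 tazemetostat mice (left) and the 3 vehicle mice (right); lines are means, bars SD, n = 3 each, and every vertical axis starts at 0. DUSP1, IER3 and ZFP36 have no overlap between the groups, and mouse M_766 of the vehicle group is the lowest of the 6 mice for 6 of the 10 genes.

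The dual-specificity phosphatases shut off the kinases that induce them. DUSP1 (chromosome 5, 172768090 to 172771195, minus strand), a nuclear phosphatase that removes phosphate from p38, JNK and ERK, was at 104, 102 and 82.2 CPM in tazemetostat mice M_767, M_768 and M_774, against 32.7, 66.0 and 49.9 CPM in vehicle mice M_766, M_769 and M_770. Every tazemetostat mouse was above every vehicle mouse, and M_766 was the lowest of the 6. The mean was 96.2 ± 12.1 CPM in tazemetostat mice and 49.5 ± 16.6 CPM in vehicle mice (SD, n = 3 each), a log2 fold change of 0.96 (SE 0.208, edgeR adjusted p = 0.303). All 9 tazemetostat libraries, at 80.7 to 115 CPM, lay above all 9 vehicle libraries, at 32 to 67.3 CPM. DESeq2 gave DUSP1 an adjusted p of 0.00163. DUSP2 (chromosome 2, 96143166 to 96145440, minus strand), a nuclear phosphatase of ERK and p38 found in blood cells, was at 19.3, 22 and 16.9 CPM in tazemetostat mice M_767, M_768 and M_774, against 15.9, 15.4 and 17.7 CPM in vehicle mice M_766, M_769 and M_770. The groups overlapped for DUSP2 through mice M_774 and M_770, and the log2 fold change was 0.25 (SE 0.121, edgeR adjusted p = 0.78).

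ZFP36 and the IER genes act after transcription or in cell survival. ZFP36 (chromosome 19, 39406813 to 39409412, plus strand) encodes tristetraprolin, which binds AU-rich elements and speeds the decay of messenger RNAs such as that of TNF and its own. It was at 41, 36.5 and 40.1 CPM in tazemetostat mice M_767, M_768 and M_774, against 22.7, 27.7 and 30.4 CPM in vehicle mice M_766, M_769 and M_770. The groups did not overlap in mice, nor in libraries, which ran from 34.5 to 43 CPM in the tazemetostat group and from 20 to 31.2 CPM in the vehicle group. The log2 fold change of ZFP36 was 0.54 (SE 0.117, edgeR adjusted p = 0.291), and DESeq2 gave an adjusted p of 0.0144. IER3 (chromosome 6, 30743199 to 30744554, minus strand), a stress-inducible regulator of survival and ERK signalling, was at 8.03, 10 and 5.51 CPM in tazemetostat mice M_767, M_768 and M_774, against 2.57, 4.29 and 3.98 CPM in vehicle mice M_766, M_769 and M_770. Its groups did not overlap, and its log2 fold change was 1.12 (SE 0.246, edgeR adjusted p = 0.31; DESeq2 adjusted p = 0.00163). The IER3 libraries nearly met, at 5.31 to 15 CPM in the tazemetostat group and 1.76 to 5.31 CPM in the vehicle group. Without library M_768_C, DUSP1, IER3 and ZFP36 did not overlap between the groups of mice either. IER2 (chromosome 19, 13150415 to 13154908, plus strand), a small nuclear protein, was the 1 gene of the 10 with a log2 fold change under 0. It was at 7.14, 8.54 and 8.25 CPM in tazemetostat mice M_767, M_768 and M_774, against 9.26, 10.5 and 7.39 CPM in vehicle mice M_766, M_769 and M_770, with overlap and a log2 fold change of -0.18 (SE 0.154, edgeR adjusted p = 0.899).

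The transcription factors differed among themselves. EGR1 (chromosome 5, 138465490 to 138469315, plus strand), a zinc-finger activator downstream of ERK, was at 10.6, 7.25 and 3.68 CPM in tazemetostat mice M_767, M_768 and M_774, against 1.39, 3.73 and 3.17 CPM in vehicle mice M_766, M_769 and M_770. Tazemetostat mouse M_774 lay within the vehicle range, just under vehicle mouse M_769, while M_767 and M_768 were above all vehicle mice. The log2 fold change of EGR1, the largest of the 10, was 1.39 (SE 0.399, edgeR adjusted p = 0.472), and it was 0.99 without mouse M_767 and 1.70 without mouse M_774. EGR2 (chromosome 10, 62811996 to 62919900, minus strand), a related factor that restrains lymphocyte activation, had 55, 75 and 25 counts in tazemetostat mice M_767, M_768 and M_774, against 9, 36 and 36 counts in vehicle mice M_766, M_769 and M_770. EGR3 (chromosome 8, 22687659 to 22693302, minus strand) had 19, 15 and 21 counts in tazemetostat mice M_767, M_768 and M_774, against 14, 14 and 4 counts in vehicle mice M_766, M_769 and M_770. Both groups overlapped for EGR2 and EGR3, and the lowest count lay in a vehicle mouse for each, M_766 for EGR2 and M_770 for EGR3. At these depths no difference was detectable for EGR2 (log2 fold change 0.76, SE 0.51, edgeR adjusted p = 0.859) or EGR3 (0.67, SE 0.458, edgeR adjusted p = 0.864).

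NR4A1 (chromosome 12, 52022832 to 52059507, plus strand), the orphan nuclear receptor NUR77, a reporter of antigen receptor signalling in lymphocytes, was nearly level. It was at 35.5, 42.1 and 35 CPM in tazemetostat mice M_767, M_768 and M_774, against 35.6, 37.2 and 35.6 CPM in vehicle mice M_766, M_769 and M_770, with a log2 fold change of 0.06 (SE 0.0978, edgeR adjusted p = 0.964). The interval of 1 SE either side ran from -0.04 to 0.15 on the log2 scale. KLF6 (chromosome 10, 3775996 to 3785281, minus strand), a Krüppel-like factor induced by injury, was at 163, 130 and 107 CPM in tazemetostat mice M_767, M_768 and M_774, against 53.8, 114 and 138 CPM in vehicle mice M_766, M_769 and M_770. Vehicle mouse M_766 alone was far below the other mice for KLF6, and without it the log2 fold change was 0.10, where with all mice it was 0.39 (SE 0.278, edgeR adjusted p = 0.868).

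**Figure D2:**
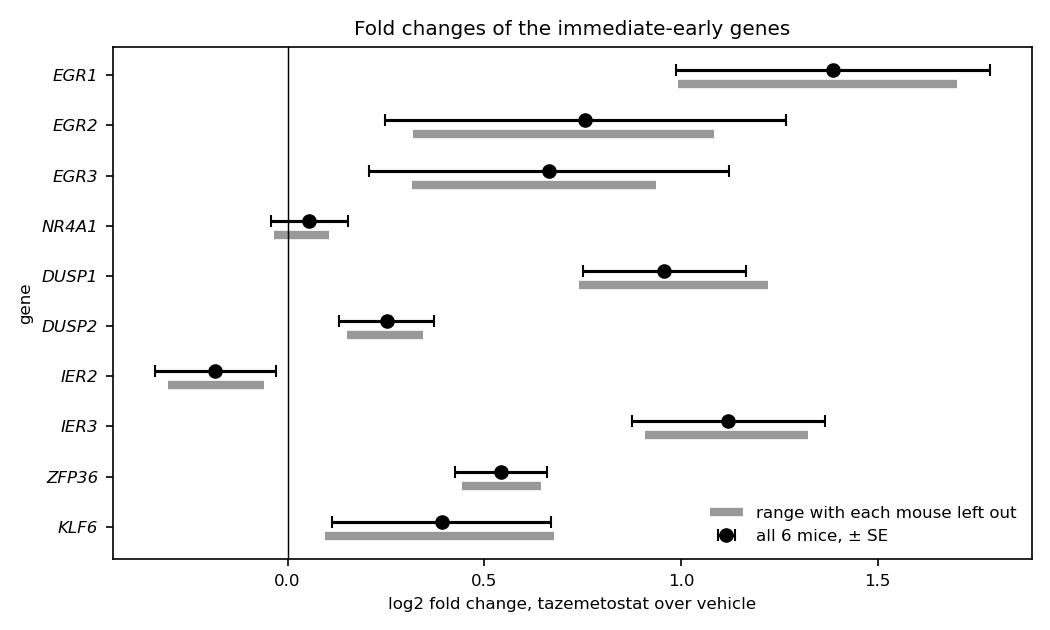
Log2 fold change of tazemetostat over vehicle for each gene (black points with bars of 1 SE, 6 mice) and the range of the estimate when each mouse is left out in turn (grey). EGR1, IER3 and DUSP1 have the largest values, at 1.39, 1.12 and 0.96, and NR4A1 lies at 0.06 with a grey range that crosses 0.

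Gene models of 5 members overlap an antisense or noncoding gene on the opposite strand, and whether counting used strand is not given in the sources used here. The partners had few counts over all 18 libraries: 41 for AC022217.3 beside 27676 for DUSP1, 39 for AC025259.3 beside 13789 for NR4A1, 23 for IER3-AS1 beside 2189 for IER3, 0 for AC011446.2 beside 3178 for IER2, and 10 for AC055854.1 beside 87 for EGR3. For EGR3 that share is the greatest of the 5.

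The 18 libraries show how much of this spread lies within a mouse. For KLF6 the SD among libraries of a mouse was 0.101 on the log2 CPM scale and the SD among mice of a group 0.546, a ratio of 5.43. DUSP1 had a ratio of 4.99 and EGR1 one of 3.41, so mice of the same group differed far more than libraries of the same mouse. For NR4A1, DUSP2, IER2, EGR2 and IER3 the ratio lay between 1.06 and 1.25, and for ZFP36 it was 1.59. All these ratios include library M_768_C, which stood apart from its sister libraries, and they were not computed without it. EGR3 had a ratio of 0.763, with an SD among libraries of a mouse of 0.515 where counting alone would give about 0.656.

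**Figure D3:**
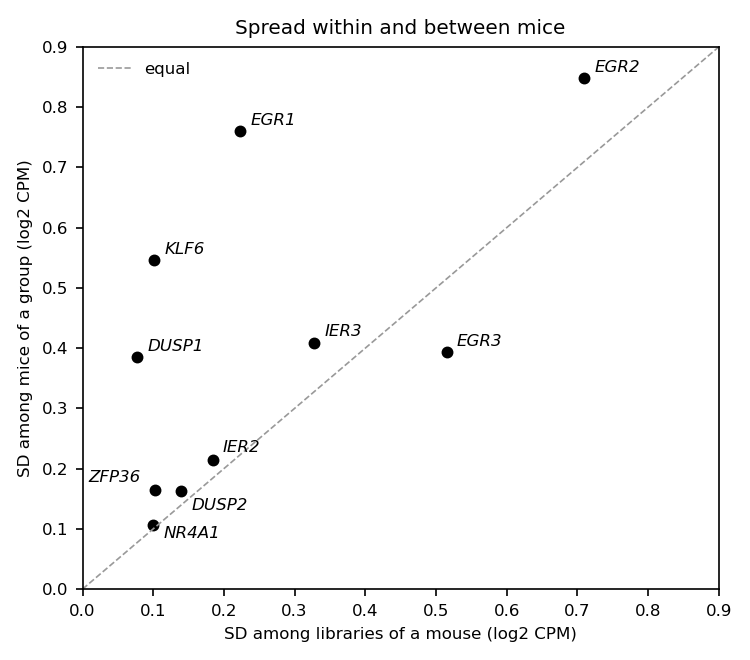
SD of log2 CPM among the 3 libraries of a mouse (horizontal) against the SD among the 3 mice of a group (vertical), pooled over mice and groups, 1 point per gene. DUSP1, KLF6 and EGR1 lie well above the dashed line of equal spread, with ratios of 4.99, 5.43 and 3.41.

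Over the libraries the 10 genes did not form 1 block. The correlation of each gene's log2 CPM with the mean of the other 9 standardized genes over 18 libraries, given as a description since libraries share mice, was 0.934 for IER3, 0.93 for DUSP1 and 0.864 for EGR1. It was 0.726 for ZFP36, 0.678 for DUSP2, 0.674 for EGR2 and 0.644 for KLF6. NR4A1 at 0.305, EGR3 at 0.195 and IER2 at -0.282 stood outside. Mouse M_766 of the vehicle group had the lowest level of EGR1, EGR2, DUSP1, IER3, ZFP36 and KLF6. Mice M_767 and M_768 of the tazemetostat group had the highest level of 4 genes each.

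**Figure D4:**
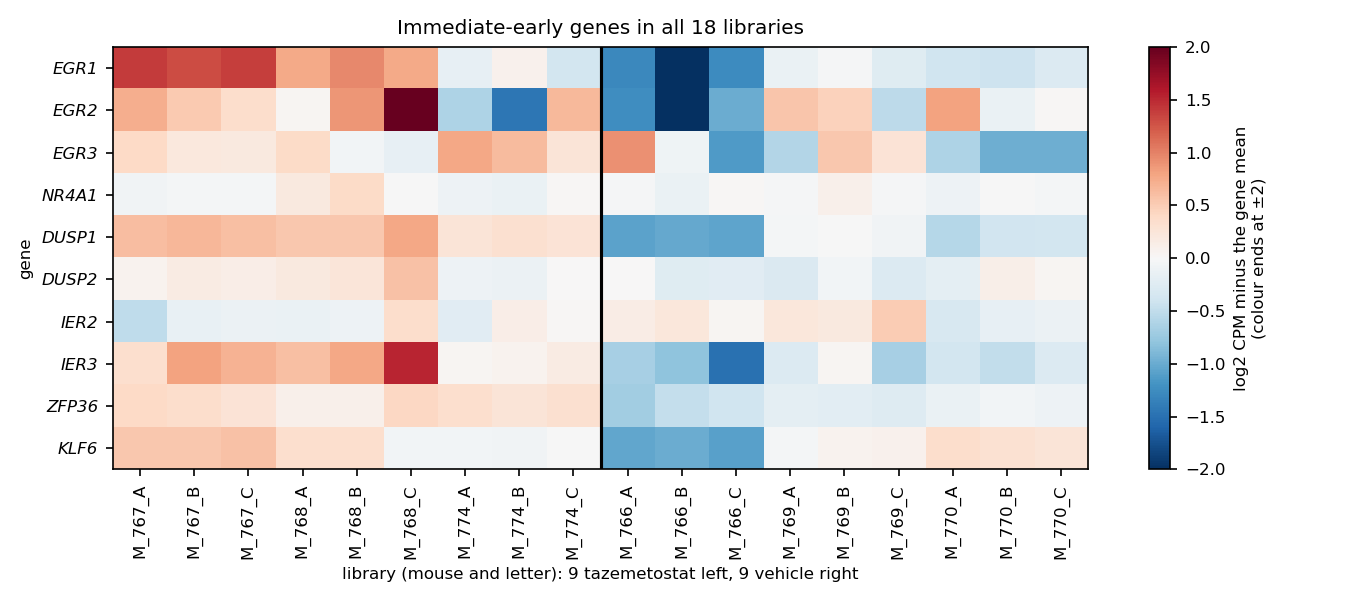
Log2 CPM of the 10 genes in each library minus the gene's mean over the 18 libraries, with 9 tazemetostat libraries left of the black line and 9 vehicle libraries right of it; red is above and blue below the mean. The 3 libraries of mouse M_766 are low for DUSP1, KLF6 and EGR1 together, and library M_768_C is the highest for EGR2, IER3, DUSP2, DUSP1 and ZFP36.

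The genes outside the 10 that most resembled their mean profile over the 18 libraries included several stress and heat shock genes. By Pearson correlation, as a description, they were PPP1R15A, a subunit of the phosphatase that restores translation after stress (0.961), the inducible chaperones HSPA6 (0.961), HSPA1B (0.952) and DNAJB1 (0.937), RGS2, a brake on G-protein signalling (0.944), CITED2, a CBP/p300-binding co-regulator (0.944), the peptide hormone gene ADM (0.937), the kinase PLK2 (0.926), PNRC1, a nuclear receptor coactivator (0.92), and CD69, an early lymphocyte activation marker (0.913). Since they were picked for following a profile that is itself higher in tazemetostat mice, their direction is no separate result. Each of these 10 genes was higher in every tazemetostat mouse than in any vehicle mouse, and none passed over all genes, with edgeR adjusted p from 0.219 for RGS2 to 0.648 for PNRC1.

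Other immediate-early genes were described as lists, each with its own count. Among 8 AP-1 factors, partners of the EGR genes in the same response, 6 had a log2 fold change above 0 (median 0.54), 3 did not overlap between the groups (6.58% of all tested genes in that direction) and 0 passed over all genes, with 4 of 8 higher at an unadjusted edgeR p under 0.05 (3.34% of all tested genes). The median was 0.33 without vehicle mouse M_766 and 0.35 without tazemetostat mouse M_767. ATF3, a stress-induced repressor, was at 24.3, 23.8 and 26.1 CPM in tazemetostat mice M_767, M_768 and M_774, against 14.7, 14.7 and 10.8 CPM in vehicle mice M_766, M_769 and M_770 (log2 fold change 0.88, edgeR adjusted p = 0.108). JUN was at 472, 410 and 350 CPM in the same tazemetostat mice, against 102, 237 and 290 CPM in the vehicle mice (log2 fold change 0.97, edgeR adjusted p = 0.497). FOS overlapped, at 46.4 to 85.8 CPM in tazemetostat mice and 17.9 to 48.9 CPM in vehicle mice. FOSL2 had a log2 fold change of 0.30. Of 25 tested genes of the wider early response 18 were above 0 (median 0.24, and 0.12 without vehicle mouse M_766), 6 did not overlap with tazemetostat higher and 0 passed, with 8 higher at an unadjusted edgeR p under 0.05, beside the same shares of 6.58% and 3.34% over all genes. PLK2 was at 19.7 ± 3.89 CPM in tazemetostat mice and 10 ± 4.37 CPM in vehicle mice (SD, n = 3 each). PPP1R15A was at 68.7 ± 11.5 CPM in tazemetostat mice and 49.5 ± 7.16 CPM in vehicle mice (SD, n = 3 each). BTG2, an antiproliferative gene, was at 192 ± 6.5 CPM in tazemetostat mice and 160 ± 10.7 CPM in vehicle mice (SD, n = 3 each). IER5, a regulator of heat shock factor, was at 99.6 ± 36 CPM in tazemetostat mice, against 62.3 ± 12.6 CPM in vehicle mice (SD, n = 3 each).

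Close relatives of the 10 genes had smaller median differences. Of 4 tested EGR and NR4A relatives and corepressors, 4 were above 0 with a median of 0.11. Without vehicle mouse M_770, 2 of the 4 were above 0 and the median was -0.01, and without vehicle mouse M_769 it was 0.21. The corepressors of EGR proteins NAB2 and NAB1 had log2 fold changes of 0.14 and 0.08, and the nuclear receptors NR4A3 and NR4A2 of 0.15 and 0.05 (edgeR adjusted p from 0.867 to 0.982). Of 15 other dual-specificity phosphatases 10 were above 0 (median 0.08, and 0.04 without library M_768_C). DUSP10, a phosphatase of p38 and JNK, was at 7.89 ± 1.01 CPM in tazemetostat mice and 5.69 ± 0.78 CPM in vehicle mice (SD, n = 3 each, log2 fold change 0.47, edgeR adjusted p = 0.581). DUSP6, a cytoplasmic phosphatase of ERK, was at 1.66 ± 0.112 CPM in tazemetostat mice and 1.08 ± 0.308 CPM in vehicle mice (log2 fold change 0.63, edgeR adjusted p = 0.679). DUSP8 and DUSP3 had 0.67 and 0.15 on the log2 scale. Of 5 Krüppel-like relatives 4 were above 0 (median 0.23, and 0.14 without vehicle mouse M_766), with KLF10 at 0.28, KLF3 at 0.23, KLF2 at 0.30 and KLF13 at -0.24.

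The ERK output list, which shares DUSP4 and DUSP6 with the phosphatases, had 10 of 12 genes above 0 (median 0.22) and 0 passing. Of the 12, 5 were without overlap and higher (6.58% of all tested genes) and 1 without overlap and lower (6% of all tested genes). CCND1, cyclin D1, was at 1.31 ± 0.268 CPM in tazemetostat mice and 0.608 ± 0.173 CPM in vehicle mice (SD, n = 3 each, log2 fold change 1.12, edgeR adjusted p = 0.393). The ERK inhibitors SPRED1 and SPRY2 had log2 fold changes of 0.19 and 0.23. RNAs of the upstream kinases and factors were close to level, with 11 of 19 above 0 (median 0.03, and 0.02 to 0.12 with single mice left out). Of the 19, 1, the ERK kinase MAP2K1 (0.16), was higher without overlap, near the share of 6.58% over all tested genes. ATF1, MAPK14 and RPS6KA3 had log2 fold changes of 0.14, 0.12 and 0.17. SRF, which encodes serum response factor, was at 85.5 ± 5.48 CPM in tazemetostat mice and 85.9 ± 13.2 CPM in vehicle mice (SD, n = 3 each).

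Dissociation of tissue is known to induce most of the 10 genes together with heat shock and AP-1 genes, and most of those genes had log2 fold changes above 0 here. Of 16 heat shock genes 15 were above 0 (median 0.32), 6 did not overlap with tazemetostat higher (6.58% of all tested genes), and 0 passed, with 8 higher at an unadjusted edgeR p under 0.05 (3.34% of all tested genes). HSPA6, a chaperone made only under strong stress, was at 83.2, 157 and 53 CPM in tazemetostat mice M_767, M_768 and M_774, against 16.5, 40.8 and 39.6 CPM in vehicle mice M_766, M_769 and M_770 (log2 fold change 1.60, edgeR adjusted p = 0.381). DNAJB1, a co-chaperone, was at 218, 354 and 175 CPM in the same tazemetostat mice, against 89, 144 and 144 CPM in the vehicle mice (log2 fold change 0.99, edgeR adjusted p = 0.401). HSPA1A, a near-identical copy of HSPA1B whose counts are therefore uncertain, had a log2 fold change of 1.45 and DNAJB4 one of 0.66. The constitutive chaperones HSPA8 and HSP90AB1 had 0.22 and 0.10. The mean log2 CPM of the heat shock genes was 7.39 to 7.94 in tazemetostat mice, highest in M_768, and 6.79 to 7.32 in vehicle mice, lowest in M_766, without overlap. Their summed level, set mostly by abundant chaperones, overlapped, at 9060 to 10900 CPM in tazemetostat mice and 7500 to 9890 CPM in vehicle mice.

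Over 27 tested dissociation genes outside the 10, of which 25 are also in the AP-1, heat shock or wider early response lists, 22 were above 0 (median 0.30), 9 did not overlap with tazemetostat higher (6.58% of all tested genes) and 0 passed, with 12 higher at an unadjusted edgeR p under 0.05 (3.34% of all tested genes). Their mean log2 CPM was 6.54 to 6.98 in tazemetostat mice and 6.10 to 6.45 in vehicle mice. With the heat shock level of each mouse as a covariate, the log2 fold change was 0.44 for DUSP1, 0.34 for IER3, 0.37 for EGR1, 0.42 for ZFP36 and 0.01 for DUSP2, each with an edgeR adjusted p of 0.999. In that fit it was -0.32 for KLF6, -0.90 for EGR2, -0.10 for NR4A1 and -0.15 for IER2, and it was larger than without the covariate for EGR3, at 1.35. Since the heat shock level also separated the groups, stress during dissociation and the treatment cannot be told apart in these 6 mice. Times between dissection and sorting are not given in the labels, and the part of dissociation in these values was not tested.

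**Figure D5:**
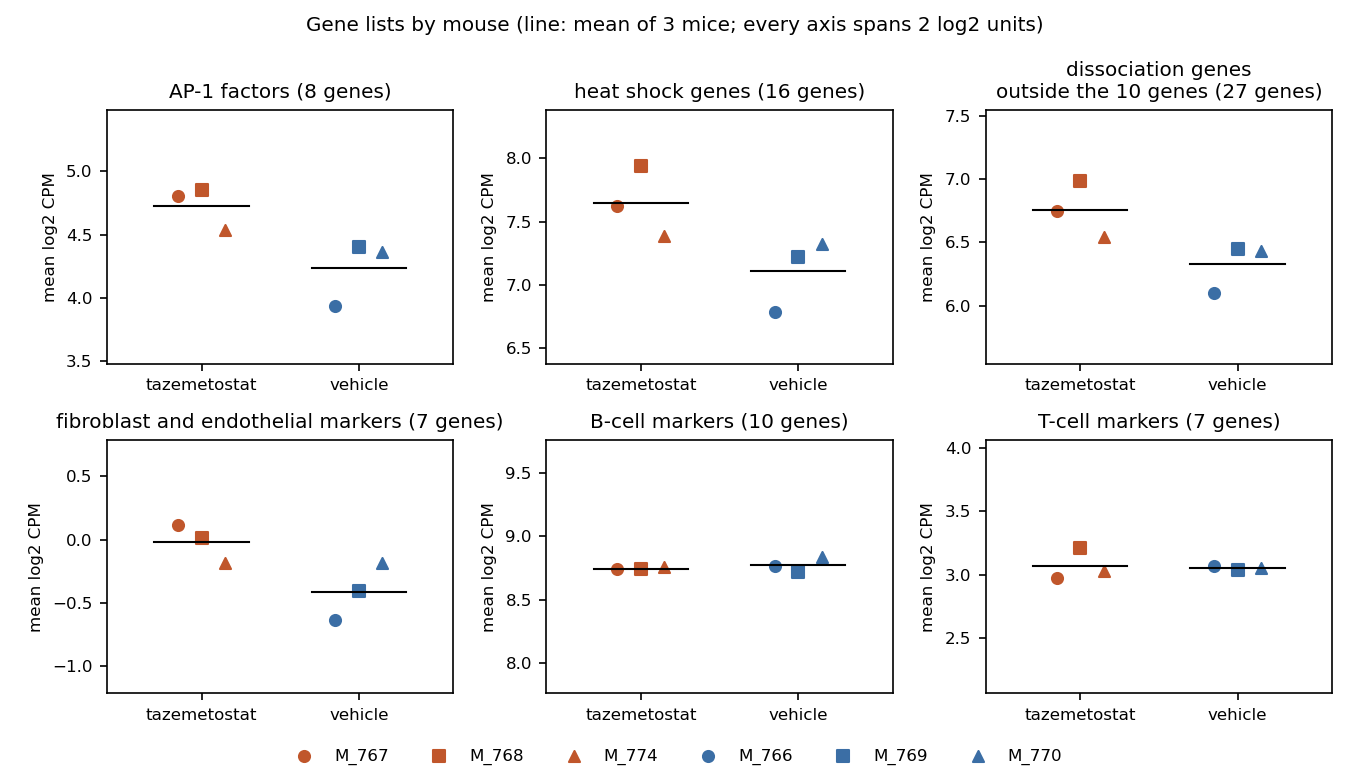
Mean log2 CPM of 6 gene lists in the 3 tazemetostat mice (left) and the 3 vehicle mice (right), with lines for the group means and axes that all span 2 log2 units. AP-1, heat shock and other dissociation genes are higher in all 3 tazemetostat mice, with mouse M_766 lowest, while B-cell and T-cell markers overlap between the groups. Fibroblast and endothelial markers are also higher in the tazemetostat mice, with M_774 at -0.18 just above M_770 at -0.19.

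Of the marker lists, that of fibroblasts and endothelium was higher in all 3 tazemetostat mice, as for the heat shock genes, and those of T, B and myeloid cells overlapped between the groups. The mean log2 CPM of 7 tested fibroblast and endothelial markers was -0.18 to 0.12 in tazemetostat mice, lowest in M_774, and -0.64 to -0.19 in vehicle mice, lowest in M_766, so that M_774 and M_770 nearly touched. Their summed level overlapped, at 11.2 to 12.8 CPM in tazemetostat mice and 8 to 13 CPM in vehicle mice, and COL3A1, LUM and CDH5 had 0 counts in both groups. Of the 7, 5 had a log2 fold change above 0 (median 0.32, 0.16 without vehicle mouse M_766 and 0.20 without tazemetostat mouse M_767). PDGFRB, a receptor of pericytes and fibroblasts, did not overlap, at 0.424 to 0.775 CPM in tazemetostat mice and 0.123 to 0.344 CPM in vehicle mice (log2 fold change 1.34, edgeR adjusted p = 0.496). CLDN5, TAGLN and ACTA2 had log2 fold changes of 0.59, 0.20 and 0.32. Fibroblasts, endothelium and myeloid cells of the host are murine, while the counts are of human genes. Their markers here are therefore no direct measure of host cells. The part of host cells in the values of the 10 genes was not tested. Of the 17 T-cell markers, 7 were tested, 3 of them above 0 (median -0.12, and 0.04 without vehicle mouse M_766), and their summed level was 187 to 224 CPM in tazemetostat mice and 188 to 229 CPM in vehicle mice. TRBC2 was at 107 ± 13.3 CPM in tazemetostat mice and 115 ± 19.4 CPM in vehicle mice (SD, n = 3 each). ZAP70 was at 32.1 ± 1.81 CPM in tazemetostat mice and 37.1 ± 2.05 CPM in vehicle mice (SD, n = 3 each). Of the defining markers, CD3E had 11 counts over the tazemetostat group and 16 over the vehicle group, beside the 0 counts of CD3D and CD3G. CD247 and PRF1 had log2 fold changes of 0.43 and -0.23. Of 10 B-cell markers 6 were above 0 (median 0.0087, and -0.04 to 0.04 with single mice left out), with MME at -0.31, MS4A1 at 0.28, BCL6 at -0.18 and CD22 at -0.16 on the log2 scale. Of 8 myeloid markers 2 were tested, CD14 at -0.33 and CSF1R at 0.31, with a summed level of 0.831 to 1.11 CPM in tazemetostat mice and 1.05 to 1.14 CPM in vehicle mice, and S100A8, S100A9 and FCGR3A had 0 counts in both groups.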

How the data were processed

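The submitters' processing notes name the build hg38 and DESeq2, with no role or version; the aligner, counter and strand option are not named there or in the labels. The authors deposited whole-number read counts per gene, not normalized, with a length in bases for each gene. All 58735 gene IDs had the same start and end in GENCODE release 29.

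Libraries A, B and C of each mouse were summed (n = 3 mice per group). In chi-square tests over genes with at least 20 summed counts, no 2 libraries of a mouse agreed within sampling noise. Counts were tested with the quasi-likelihood F test of edgeR 4.0.16 under R 4.3.3 (genes kept by filterByExpr at a minimum count of 10, TMM scaling, Benjamini-Hochberg adjustment over 20301 genes, threshold 0.05). Each SE was obtained from the log2 fold change and its F statistic. Log2 CPM used a prior count of 2. Nothing says that the mice came from separate experiments, so p-values measure the spread between these mice. DESeq2 1.42.0 and limma 3.58.1 were alternatives, with other scaling, filters, libraries and mice left out.

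The 10 genes and all gene lists were chosen with earlier results of these data known. Named genes are the 10, for each list up to 4 genes ranked first by p, and the 10 genes (log2 CPM averaging 1 or more) most correlated with the members over 18 libraries. HSPA8, HSP90AB1, SRF, CD79A and the scarce markers were named after their values were seen, and group overlap was chosen as a description then too. The level of 1 B-cell marker is not reported here. The test was checked on simulated counts for the same 6 mice (20249 genes; 50 altered genes for each fold, all averaging 1 or more in log2 CPM). It recovered 48% at 1.5-fold, 88% at 2-fold and 100% at 4-fold and 8-fold, and 16 of its 184 calls were false. With that many calls the adjusted threshold was easier to pass than in the real data, where 7 genes passed. These shares therefore do not give the power in the real data, where EGR1 at 2.62-fold and IER3 at 2.17-fold did not pass.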

Additional observations from a re-analysis of the deposited data

Results flagged for a closer look

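In the tazemetostat group 3 values stood far from those of the other libraries, all in library M_768_C. EGR2 was at 2.31 CPM there, and the next highest tazemetostat library was at 1.01 CPM. IER3 was at 15 CPM, where the next was at 9.06 CPM, and DUSP2 was at 26.8 CPM, where the next was at 20.9 CPM. In each case the gap to the nearest of the other 8 libraries was above Dixon's 95% critical value for a group of 9. Of 20 groups of 9 libraries examined, chance would flag about 1, and libraries of a mouse are not independent. The same library had a TMM factor of 0.901, where the other 17 lay between 0.978 and 1.03, and lower levels than its sisters A and B for KLF6 (107 CPM against 140 and 139 CPM) and NR4A1 (36.3 CPM against 42.1 and 47.7 CPM). Without it, the log2 fold changes of IER3, DUSP2 and EGR2 were 1.01, 0.21 and 0.48. The part that the quality of this library plays was not tested.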

How the results depend on the processing

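DUSP1, IER3 and ZFP36 were without overlap between the groups in each of 9 settings (scaling, filters, single letters, library M_768_C left out); leaving out a mouse cannot create an overlap. The count of genes without overlap was 3 to 6 when single mice were dropped: 3 without M_767 or M_766, 5 without M_768, M_769 or M_770, and 6 without M_774; over all genes it was 2554 of 20301 with all mice, and 4146 of 20659 without M_767, 4601 of 20785 without M_768, 4191 of 21108 without M_774, 5062 of 20606 without M_766, 4169 of 21055 without M_769 and 5961 of 21205 without M_770, in either direction. The counts among the 10 genes also take either direction. Of the 5 without overlap when M_768 was dropped, 1 (NR4A1) was lower in tazemetostat mice. When M_770 was dropped, 1 of the 5 (IER2) was lower. The count without overlap was 4 of 9 tested genes with library B alone (EGR1 added) or library C alone (EGR2 added). It was 4 of 10 without M_768_C (EGR3 added). Over all genes it was 2124 of 16559 with library B, 1783 of 16271 with library C and 3013 of 20091 without M_768_C, in either direction. Over all genes, 0 to 59 passed with each mouse left out (59 without M_770, 26 without M_766). The number past an adjusted p of 0.05 was 0 to 0 with each mouse left out. It was 3 with DESeq2, 4 with the mouse as a random effect over 18 libraries, 2 (DUSP1 and ZFP36) with the library letter as a replicate block in that fit, and 5 without a low-count filter (with EGR1 and KLF6), where 0.676%, 1.38%, 1.16% and 0.685% of all genes passed; the cause was not tested. EGR3 had too few counts for the 18-library fits, and EGR2 and EGR3 for a minimum of 1 CPM. The 18-library fits used 1 correlation among libraries of a mouse for all genes, the limit given above. Libraries with the same letter in different mice deviated from their mouse means with a mean correlation of -0.0041, so letters did not pair the samples. List values with mice left out were chosen after seeing the data. Of 193 alternative fold changes, 173 kept direction and side of the threshold and 14 newly passed, 5 of them without a low-count filter. Another 6 reversed: EGR2 to -0.15 with library A alone and to -0.90 with the heat shock covariate, KLF6 to -0.32 with that covariate, and NR4A1 to -0.0018 with library C alone, -0.034 without mouse M_768 (-0.034 to 0.106 over single mice left out) and -0.10 with the covariate. A sample of 6 mice limits detection, also of changes above 2-fold, since EGR1 at 2.62-fold and IER3 at 2.17-fold did not pass in edgeR. Counts under 100 per mouse limit EGR2 and EGR3.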

Other observations

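B-cell activation genes, which antigen receptor and CD40 signals induce, had 12 of 16 tested genes above 0 (median 0.25). The median was 0.10 without tazemetostat mouse M_768 and 0.13 without vehicle mouse M_766. Of the 16, 2 were without overlap and higher (6.58% of all tested genes) and 0 were past the threshold. At an unadjusted edgeR p under 0.05, 2 were higher (3.34% of all tested genes). CD69 was at 208, 223 and 179 CPM in tazemetostat mice M_767, M_768 and M_774, against 87.2, 154 and 155 CPM in vehicle mice M_766, M_769 and M_770 (log2 fold change 0.62, edgeR adjusted p = 0.522). BATF, an AP-1 family factor of lymphocytes, was at 1.87 ± 0.184 CPM in tazemetostat mice and 1.22 ± 0.155 CPM in vehicle mice (SD, n = 3 each, log2 fold change 0.61, edgeR adjusted p = 0.581). GPR183 and CD40 had log2 fold changes of 0.30 and 0.26. MYC, itself an immediate-early gene, was at 1160 ± 44.3 CPM in tazemetostat mice and 1160 ± 53.7 CPM in vehicle mice (SD, n = 3 each); it was named after its values were seen.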
